A study of Homo sapiens with 4 samples.

Results

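The RAS-RAF-MEK-ERK cascade was examined through 7 of its genes, namely the RAS GTPases NRAS and HRAS, the RAF kinases BRAF and ARAF, the MEK kinases MAP2K1 (MEK1) and MAP2K2 (MEK2), and the ERK kinase MAPK3 (ERK1). They were chosen by gene symbol from the 63677 genes of the deposited table, each symbol had 1 row there, and all 7 were expressed highly enough to be tested. RNA was sequenced from MDA-MB-231 cells, an established triple-negative breast cancer (TNBC) line of mesenchymal character that is known for activating mutations within this cascade. The siCt group (2 libraries) received a control siRNA, and the siAXL group (2 libraries) received a pool of siRNAs against the receptor tyrosine kinase AXL. Both groups thus share the line, its mutations and the transfection, the study's methods describe transient transfection, and the labels do not give the time from transfection to RNA. Nothing in the labels says that the libraries of a group came from separate cultures, so the p-values measure only the spread between these libraries, which may be technical. The comparison asks which genes of the cascade were expressed at another level once AXL was depleted.

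In this cascade an active receptor recruits adaptors and exchange factors that load RAS with GTP, RAS-GTP brings RAF kinases to the membrane, RAF phosphorylates MEK, and MEK phosphorylates ERK. ERK then phosphorylates other kinases and transcription factors, and it induces phosphatases and adaptors that damp the cascade. The cascade is governed largely by nucleotide exchange and phosphorylation, which were not measured here, so every value below is a level of RNA. RNA from all cells of a library was pooled, so fewer cells of a type and less RNA per cell cannot be told apart.

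The libraries held 39574387 to 44585773 reads assigned to genes. AXL stood at 29189 and 30617 normalized counts in siCt and at 8658.5 and 7141 in siAXL, where a normalized count is a number of reads divided by a size factor of the library. The siAXL mean was 26.4% of the siCt mean (log2 fold change of -1.93 with a standard error of 0.0918 and a limma adjusted p of 0.000585). VIM, CD44, CAV1 and ANXA1, markers of mesenchymal breast cancer lines, lay between 17121 and 99296 normalized counts in every library. The receptor genes ESR1 and PGR had at most 3 reads, while ERBB2 had 2722 to 3789 and the epithelial genes EPCAM and CDH1 had 577 to 785 and 23 to 94. RNA of ERBB2 and EPCAM was thus counted in every library, and no level was set below which a gene is low. Of these markers CAV1 (log2 fold change 0.34, limma adjusted p = 0.00908) and ERBB2 (0.26, adjusted p = 0.0258) were called higher in siAXL and CDH1 lower (-1.64, adjusted p = 0.00847), and their part in the results below was not tested. Of the genes of other cell types PECAM1 and ADIPOQ had at most 1 read, VWF at most 7, PTPRC at most 17, CD68 at most 43 and ACTA2 at most 100.

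Of the 7 genes only MAP2K1 was called as changed, and it rose to 138.8% of its control level. Calls were made where limma's p, adjusted by Benjamini-Hochberg over all 16064 genes tested, was under 0.05, and 18.7% of these genes were called, 10.8% as higher and 7.91% as lower in siAXL. Of all calls 57.7% were higher, and 46.8% were when libraries were scaled by their size alone. The 3006 calls fell to 1301 without siAXL 1 and to 1518 without siAXL 2. The share of members called, 1 of 7, is therefore close to the background. Of the tested genes, 19.4% were called by edgeR and 20.1% of those given an adjusted p by DESeq2, and among the 7 genes each tool called MAP2K1 and no other. An unadjusted p under 0.05 was reached by 4 of the 7, against 34.0% of all genes tested.

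Reads of closely related genes can be told apart only where their sequences differ, so the longest stretch of coding sequence shared base for base is shown here for the RAS pair and the RAF pair. The sequences are from the GENCODE 29 transcripts on GRCh38, 5′ to 3′ on the coding strand, with positions counted from the first base of the start codon.
NRAS and HRAS, bases 286 to 299 in both: tacagggagcagat
BRAF bases 1588 to 1608 and ARAF bases 1147 to 1167: cagtggtgtgagggctccagc
The runs are 14 and 21 bases long. Over their aligned coding sequences, the pairs are identical at 73.0% of 567 bases (NRAS and HRAS), 64.4% of 1789 bases (BRAF and ARAF) and 74.7% of 1176 bases (MAP2K1 and MAP2K2). The pseudogenes BRAFP1 and MAP2K1P1, which have rows of their own, held at most 4 and 2 reads in any library. How the counting treated reads that match several places is not given in the sources used here.

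**Figure D1:**
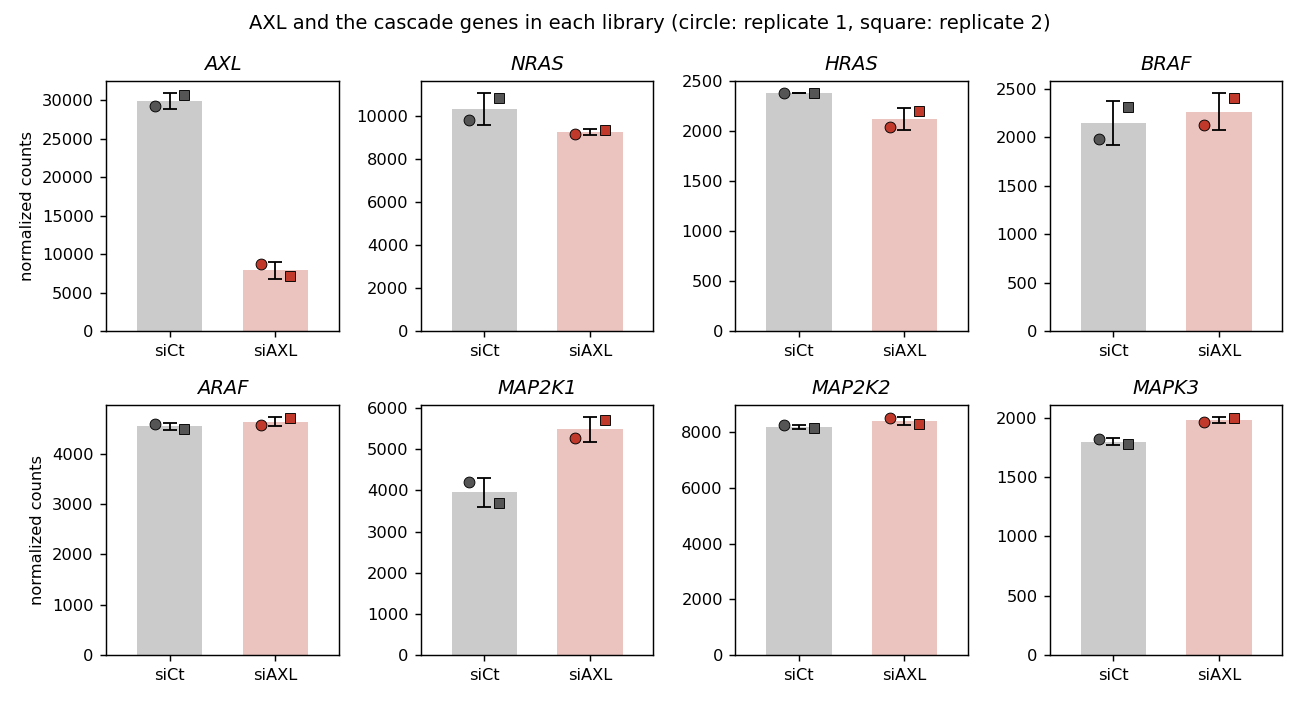
Normalized counts of AXL and the 7 cascade genes in each library, with 1 panel a gene and each point a library. Each bar is the mean of the 2 libraries of a group, with an error bar for the SD. For MAP2K1 the siAXL libraries (5271 and 5705) lie above both siCt libraries (4203 and 3703), while for BRAF and ARAF the groups overlap.

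NRAS and HRAS are the small GTPases that switch the cascade on when they carry GTP. NRAS (ENSG00000213281, chromosome 1, 114704469 to 114716894, minus strand, GRCh38) had 9805 and 10848 normalized counts in siCt and 9167 and 9336 in siAXL. Both siAXL libraries were thus below both siCt libraries, by a gap of 469 normalized counts, and the siCt libraries lay farther from each other than that. The mean was 10326 ± 738 in siCt and 9252 ± 119 in siAXL (SD, n = 2 in each). NRAS was not called (log2 fold change -0.16, standard error 0.0643, 95% interval -0.31 to -0.0051, limma adjusted p = 0.136), and leaving out 1 library at a time placed its log2 fold change between -0.23 and -0.084.

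HRAS (ENSG00000174775, chromosome 11, 532242 to 537287, minus strand, GRCh38) had 2385 normalized counts in each siCt library and 2043.5 and 2201 in the siAXL libraries. Here too both siAXL libraries were the lower ones. HRAS was not called (log2 fold change -0.17, standard error 0.0632, 95% interval -0.32 to -0.020, limma adjusted p = 0.107). It kept a negative log2 fold change, from -0.22 to -0.12, whichever library was left out. A pair of siAXL libraries under both siCt libraries was found for 30.5% of all tested genes, against 2 of the 7 genes here. The median log2 fold change of all tested genes was -0.0022 and the 25th percentile -0.16, with HRAS just under and NRAS just over that percentile.

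The ratio of NRAS to HRAS did not separate the groups. On the log2 scale it was 2.04 and 2.19 in siCt and 2.16 and 2.08 in siAXL, a difference of 0.012 (exact two-sided permutation test, p = 1). With 2 libraries against 2 the smallest p this test can give is 0.333.

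BRAF and ARAF are the RAF kinases that RAS-GTP recruits and that phosphorylate MEK, and neither was called. BRAF (ENSG00000157764, chromosome 7, 140719327 to 140924928, minus strand, GRCh38) had 1981 and 2307 normalized counts in siCt and 2125 and 2398.5 in siAXL. The groups overlapped, and the spread within each group was larger than the difference between the means of 2144 ± 230 and 2262 ± 193 (SD, n = 2 in each). The log2 fold change was 0.079 (standard error 0.0936, 95% interval -0.14 to 0.30, limma adjusted p = 0.606), and it was below 0 when siCt 1 (-0.031) or siAXL 2 (-0.0086) was left out.

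Of the 7 genes, BRAF shares the most exonic bases with another gene, though not the largest part of its exon length. On GRCh38, 1239 bases of its exons (5.29% of their length) overlap exons of NDUFB2, a respiratory complex I subunit gene on the opposite strand. NDUFB2 had a mean of 2394 reads a library against 2206 for BRAF. The strand setting of the counting is not given in the sources used here, so reads of the overlap may not be told apart. NDUFB2 itself was not called (log2 fold change -0.089, limma adjusted p = 0.322).

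ARAF (ENSG00000078061, chromosome X, 47561100 to 47571920, plus strand, GRCh38) had 4599 and 4499 normalized counts in siCt and 4573.5 and 4711 in siAXL. One siAXL library lay between the siCt libraries and the other above them. Its log2 fold change of 0.029 had a narrow 95% interval, from -0.098 to 0.16 (standard error 0.0539, limma adjusted p = 0.752), so a rise of the size seen for MAP2K1 lies outside it. The log2 ratio of BRAF to ARAF was -1.21 and -0.96 in siCt and -1.11 and -0.97 in siAXL (difference 0.049, exact two-sided permutation test, p = 1), and the groups overlapped.

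MAP2K1 and MAP2K2 encode MEK1 and MEK2, the dual-specificity kinases that phosphorylate ERK on a threonine and a tyrosine. MAP2K1 (ENSG00000169032, chromosome 15, 66386817 to 66492312, plus strand, GRCh38) had 4203 and 3703 normalized counts in siCt and 5271 and 5705 in siAXL. The lowest siAXL library exceeded the highest siCt library by 1068 normalized counts. The mean rose from 3953 ± 353 to 5488 ± 307 (SD, n = 2 in each). On the log2 scale this was a rise of 0.47 (standard error 0.0772, 95% interval 0.29 to 0.66). The adjusted p was 0.00908 with limma, 0.00941 with edgeR and 1.52e-05 with DESeq2. MAP2K1 stood at rank 781 of the genes tested by adjusted p, and 92.1% of them had a smaller log2 fold change.

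The rise of MAP2K1 was called in 12 of 13 other ways of processing the data, with log2 fold changes from 0.38 to 0.57 when 1 library was left out. It was not called when every gene with at least 1 read was tested (adjusted p = 0.0512). Exons of MAP2K1 overlap those of SNAPC5 by 216 bases (5.75% of their length) on the opposite strand. SNAPC5 is a subunit gene of a complex needed for the transcription of small nuclear RNAs. SNAPC5 had 8.80% of the reads of MAP2K1, and its log2 fold change was -0.14 (limma adjusted p = 0.375). An antisense gene, AC116913.1, shares 432 bases (11.5% of the exon length of MAP2K1) and had a mean of 11.3 reads a library.

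MAP2K2 (ENSG00000126934, chromosome 19, 4090321 to 4124129, minus strand, GRCh38) had 8244.5 and 8139 normalized counts in siCt and 8514 and 8307 in siAXL. Both siAXL libraries were above both siCt libraries, by a gap of 62.5 normalized counts, which is smaller than the distance between the libraries of either group. MAP2K2 was not called (log2 fold change 0.038, standard error 0.0520, 95% interval -0.085 to 0.16, limma adjusted p = 0.660).

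In the balance between the MEK genes the groups did not overlap. The log2 ratio of MAP2K1 to MAP2K2, which does not depend on how a library is scaled, was -0.97 and -1.14 in siCt and -0.69 and -0.54 in siAXL. The difference of 0.44 had the smallest p that the exact two-sided permutation test allows (p = 0.333), so this test cannot pass a threshold of 0.05 here. Counted per kilobase of the main transcript, MAP2K1 made up 20.6% and 18.8% of the sum of both MEK genes in siCt and 23.9% and 25.9% in siAXL. The share itself depends on the length used, and per kilobase of all exons it was 41.5% and 38.8% in siCt and 46.3% and 48.9% in siAXL.

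**Figure D2:**
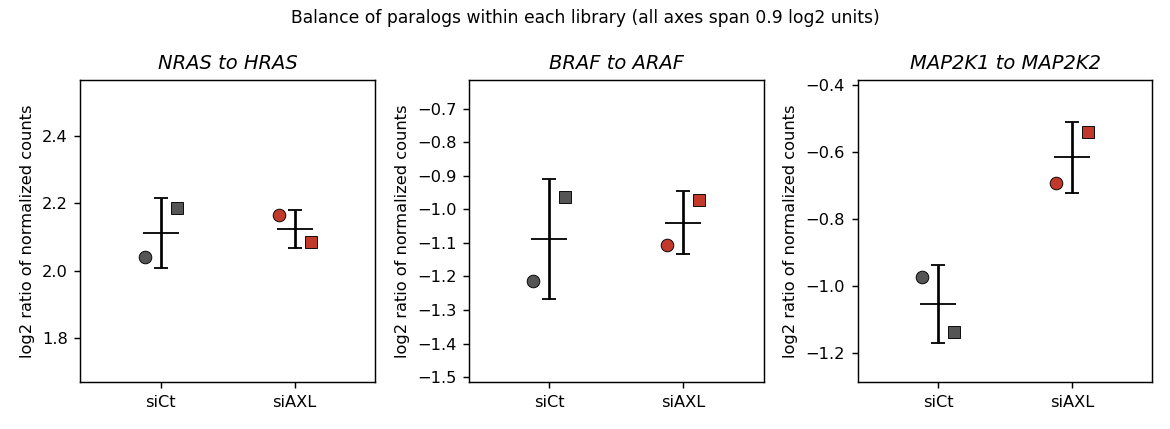
Log2 ratio of normalized counts within each library for NRAS to HRAS, BRAF to ARAF and MAP2K1 to MAP2K2, with each point a library and each line the mean of a group. The groups are apart for MAP2K1 to MAP2K2 (-0.97 and -1.14 in siCt, -0.69 and -0.54 in siAXL) and overlap for the other pairs.

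MAPK3 encodes ERK1, the last kinase of the cascade. MAPK3 (ENSG00000102882, chromosome 16, 30114105 to 30123506, minus strand, GRCh38) had 1822 and 1777 normalized counts in siCt and 1966 and 2003 in siAXL. Both siAXL libraries were above both siCt libraries, by a gap of 144 normalized counts, with means of 1799 ± 31.8 and 1984 ± 26.02 (SD, n = 2 in each). MAPK3 was not called (log2 fold change 0.14, standard error 0.0594, 95% interval 0.00094 to 0.28, limma adjusted p = 0.145, DESeq2 adjusted p = 0.328). Groups with both siAXL libraries on top were found for 3 of the 7 genes (MAP2K1, MAP2K2 and MAPK3) and for 30.6% of all tested genes.

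**Figure D3:**
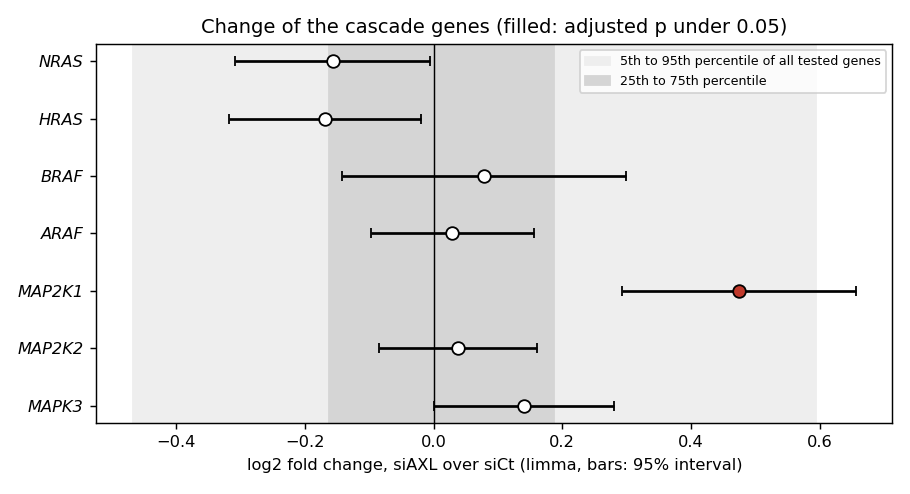
Log2 fold change of siAXL over siCt for the 7 cascade genes, with 95% intervals from limma, over bands that hold the middle 50% and 90% of all 16064 tested genes. MAP2K1 at 0.47 lies outside the inner band (-0.16 to 0.19) and inside the outer one (-0.47 to 0.59), and it is the filled point.

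Levels can be compared between genes only per length. Per kilobase of the main transcript, the siCt means were 4724 ± 42.9 normalized counts for MAP2K2, 2321 ± 166 for NRAS, 2072 ± 0.0337 for HRAS, 1851 ± 28.8 for ARAF, 1159 ± 104 for MAP2K1, 967 ± 17.1 for MAPK3 and 332 ± 35.7 for BRAF (SD, n = 2 each). MEK2 RNA was thus the most abundant of the 7 and BRAF RNA the least. In siAXL the means were 4850, 2079.5, 1844, 1889, 1609, 1066 and 350 in the same order of genes, and the libraries of HRAS (1775 and 1912) overlapped those of ARAF (1861 and 1916).

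The order depends on which length is used. Per kilobase of all exons of a gene, NRAS came first in siCt (2321) and MAP2K2 second (1564.5), ARAF (1287) and HRAS (1286) did not differ beyond the spread between libraries, and MAP2K1 (1052), MAPK3 (490) and BRAF (91.5) followed. By that measure MAP2K1 stood below ARAF and HRAS in siCt and above both in siAXL (1460 against 1313 and 1145).

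**Figure D4:**
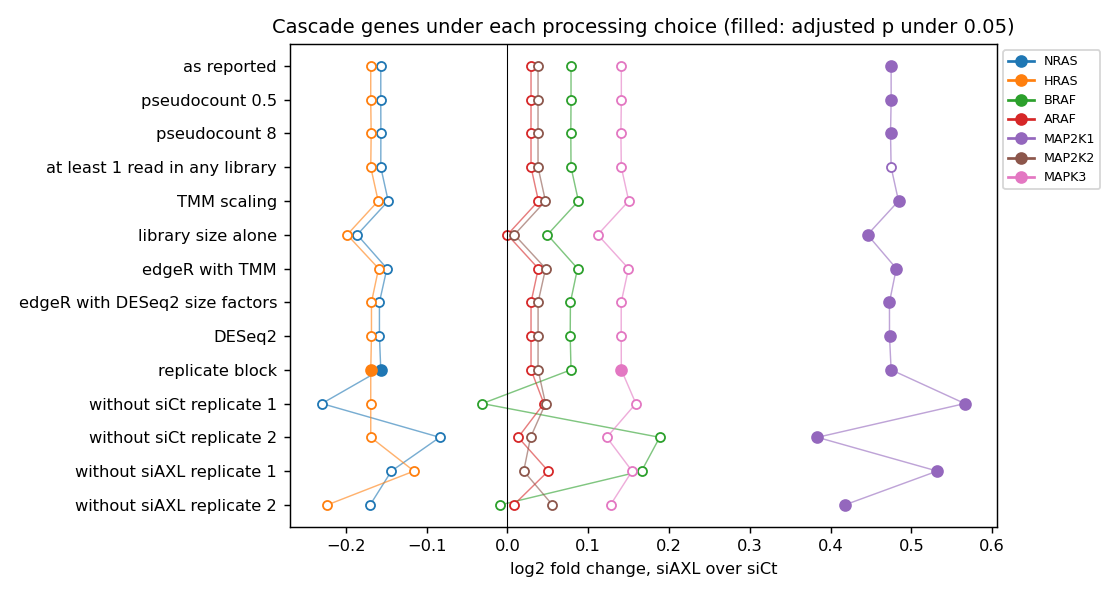
Log2 fold change of siAXL over siCt for the 7 cascade genes as reported and under 13 other ways of processing the data, filled where the adjusted p is under 0.05. MAP2K1 stays between 0.38 and 0.57 and is filled in all but the test of every gene with at least 1 read, and BRAF and ARAF cross 0.

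The cascade works through many other genes, and 122 of them were listed by role. Of the 115 that could be tested, 19 were called higher and 6 lower. That is 16.5% and 5.22%, beside 10.8% and 7.91% of all genes, and the median log2 fold change of the 115 was 0.045. Without siAXL 1 the counts were 7 and 3, without siAXL 2 they were 8 and 3, and without siCt 1 they were 17 and 11. RASGRP1, RASGRP2, RASGRP4, RASAL1, RASAL3, KSR2 and MAPK10 had too few reads to be tested. Among the 19 genes picked by adjusted p within the lists of adaptors, regulators, targets and related kinases, 8 were called under every alternative (GAB2, RASGRP3, ARRB2, MAP3K8, RPS6KA2, ETS1, ELK3 and MAPK13). The other 11 were not called under at least 1, each of them at least when a siAXL library was left out, which leaves 1 library in that group. The number of calls over all genes also fell then, and all 11 kept the sign of their log2 fold change.

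A list of 6 core paralogs held 3 genes called higher, 50% of this short list beside 10.8% of all genes. RRAS, a RAS relative linked to integrin function, had 1905 and 1602.5 normalized counts in siCt and 2807 and 2957 in siAXL, groups that are far apart (a log2 difference of 0.72 with standard error 0.0893, limma adjusted p = 0.00388). MRAS, which forms a phosphatase complex with SHOC2 that activates RAF, rose by 0.34 on the log2 scale (adjusted p = 0.0299). MRAS was not called without siCt 1, siAXL 1 or siAXL 2 (adjusted p up to 0.150). RRAS2 had a log2 fold change of -0.034 (adjusted p = 0.787) and overlapping groups, and went from -0.11 to 0.041 as 1 library was left out.

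Upstream of RAS, 3 of 16 adaptors and exchange factors were called. At 18.8% this is close to the share of all genes (18.7%), and the list's median log2 fold change was 0.12. The docking protein gene GAB2 rose (log2 fold change 0.42, limma adjusted p = 0.00816), as did SHC2, an adaptor of low abundance with 33.6 and 30.3 normalized counts in siCt and 83.5 and 65.8 in siAXL (1.19, adjusted p = 0.0125). SHC2 lost its call without siAXL 1 (adjusted p = 0.0693). RASGRP3, an exchange factor that responds to diacylglycerol, fell by 0.57 (adjusted p = 0.00685). Of 8 GTPase-activating proteins, which switch RAS off, 2 were called higher, 25% beside 10.8% of all genes, among them RASA3 (0.23, limma adjusted p = 0.0265). Of 9 genes for the lipid modification of RAS 1 was called, which is 11.1%. LYPLA2, a thioesterase that removes palmitate, rose by 0.25 (limma adjusted p = 0.0231). Without siCt 2, siAXL 1 or siAXL 2, neither RASA3 (adjusted p up to 0.127) nor LYPLA2 (up to 0.116) was called.

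Of 26 scaffolds, chaperones and direct regulators, 2 were called higher and 2 lower. That is 7.69% each way beside 10.8% and 7.91% of all genes, and the median was -0.013. PPP1CA, a catalytic subunit of protein phosphatase 1, rose by 0.24 (limma adjusted p = 0.0346) and so did the scaffold gene IQGAP1 (0.24, adjusted p = 0.0460). Neither was called without siCt 1 or either siAXL library, nor IQGAP1 without siCt 2 (adjusted p up to 0.195 and 0.235). ARRB2, or beta-arrestin 2, which can carry RAF and ERK on internalised receptors, fell from 1187 and 1279 normalized counts in siCt to 582 and 706 in siAXL (a log2 difference of -0.94 with standard error 0.105, limma adjusted p = 0.00307). MAP3K8, a kinase that phosphorylates MEK in place of RAF, fell by 0.54 (adjusted p = 0.00967).

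Downstream of ERK, RPS6KA2 (RSK3), a kinase that ERK activates, rose from 1903 and 1887.5 normalized counts in siCt to 2714 and 2924 in siAXL, the 1 called gene of its list of 8 (a log2 difference of 0.57 with standard error 0.0631, limma adjusted p = 0.00304). That is 12.5% of the list, beside 10.8% of all genes called higher. Of 8 transcription factors listed downstream of ERK, 4 were called, 2 in each direction. That is 25% each way beside 10.8% and 7.91% of all genes, and the median was 0.016. ELK3 (0.47, adjusted p = 0.00458) and ETS1 (0.46, adjusted p = 0.00411) rose, while SRF (-0.27, adjusted p = 0.0156) and ETS2 (-0.31, adjusted p = 0.0246) fell. Among 13 genes of negative feedback or of the ETV factors that follow ERK activity, DUSP5, a nuclear ERK phosphatase, rose (0.23, adjusted p = 0.0360), and SPRED1, an inhibitor of RAS, fell (-0.31, adjusted p = 0.0238). That is 15.4% of the 13, beside 18.7% of all genes called in either direction, and the median of the 13 was 0.025. SRF, ETS2, DUSP5 and SPRED1 were not called without siAXL 1 or siAXL 2, nor the last 3 without siCt 2 (adjusted p up to 0.0845, 0.0895, 0.204 and 0.0787).

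Another list held kinases of the parallel JNK, p38 and ERK5 cascades together with MAPK6 and MAPK15, and its median log2 fold change was 0.032. Of its 21 tested kinases 5 were called, each higher, which is 23.8% beside the 10.8% of all genes called higher. They were MAPK13 (p38 delta; 0.35, limma adjusted p = 0.00675), MAP3K3 (0.32, adjusted p = 0.0147), MAPK7 (ERK5; 0.36, adjusted p = 0.0268), MAP3K4 (0.29, adjusted p = 0.0317) and MAPK6 (ERK3; 0.24, adjusted p = 0.0264). MAPK7, MAP3K4 and MAPK6 were added after their values were seen. None of MAP3K3, MAPK7, MAP3K4 and MAPK6 was called without siAXL 1 or siAXL 2, nor MAPK7 and MAPK6 without siCt 2 or MAP3K4 without siCt 1 (adjusted p up to 0.0655, 0.0811, 0.161 and 0.141).

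**Figure D5:**
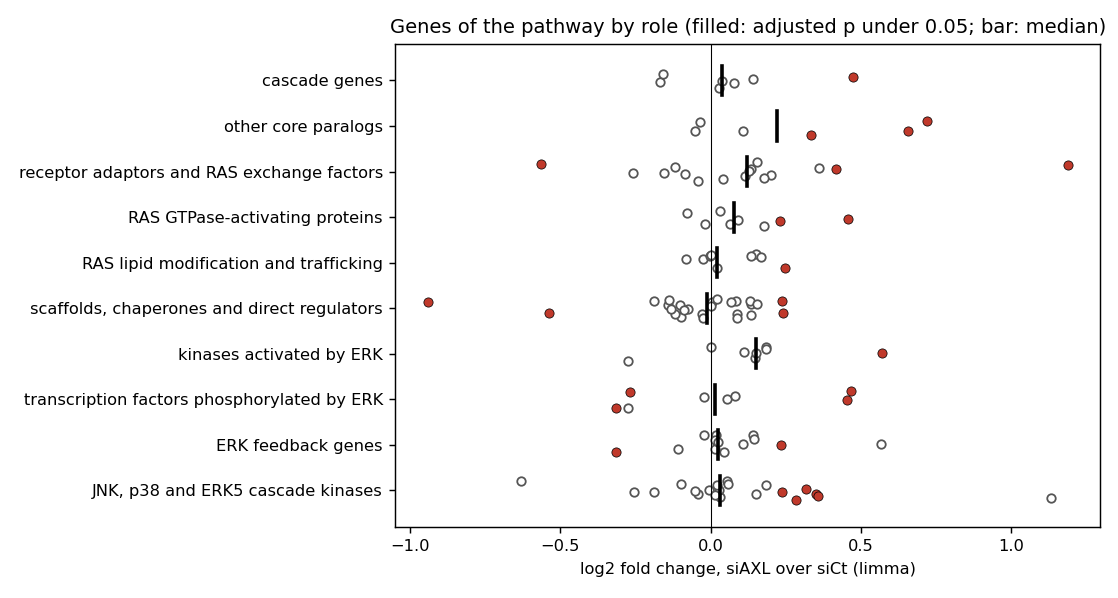
Log2 fold change of siAXL over siCt for the 7 cascade genes and the 115 tested genes of the pathway lists, by role, with each point a gene, filled at an adjusted p under 0.05, and each bar the median of a list. Called genes lie on both sides of 0 in the lists of adaptors, scaffolds, transcription factors and feedback genes. In every other list they lie to the right of 0.

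For each cascade gene the pathway gene with the most similar profile over the 4 libraries was sought, by the Euclidean distance between centred log2 values, as a description. MAP2K1 lay nearest to ELK3 (distance 0.0898), NRAS to PPP1CB (0.0423), HRAS to HSP90AB1 (0.0520), BRAF to GAB1 (0.0626), ARAF to MAPK9 (0.0194), MAP2K2 to MAP3K11 (0.0334) and MAPK3 to FNTB (0.0134), each among 115 genes. MAP2K1 had the largest of these distances.

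The 3′ UTRs were searched for CACATCA, a word of 7 bases whose carriers are known from these same data to lie higher in siAXL. Of 12894 coding genes with a 3′ UTR on GRCh38, 10.1% carried it, and 28.7% of the carriers were called higher against 11.0% of the others. None of the 7 cascade genes carried it in its main transcript, MAP2K1 included. Of the 1655 coding genes called higher, 375 carried it. A share above 10.1% among genes that rose is thus not particular to the pathway. Among the genes of the pathway lists the word was found in 7 of the 19 that rose, 1 of the 6 that fell (SPRED1) and 10 of the 89 that were not called and have a 3′ UTR there. The stretches around it in 4 genes that rose are printed as examples of carriers, picked among genes that rose, and show nothing of the carriers that did not, with the word in capitals, from GENCODE 29 transcripts.
RRAS, 3′ UTR bases 119 to 125: tctcccaggaCACATCAcatacccacc
RPS6KA2, 3′ UTR bases 3252 to 3258: gttatgtttaCACATCAtttttatgtt
ETS1, 3′ UTR bases 369 to 375: gtgacattgtCACATCAgaactcatga
GAB2, 3′ UTR bases 1375 to 1381: cctagaggacCACATCAggcatggctg
The positions give those of the word, counted from the first base after the stop codon. A match is a run of letters and not a shown binding site, and its part in these changes was not tested. The search did not take the length of a UTR into account.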

How the data were processed

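RNA was extracted on columns and sequenced by the authors from 2 siCt and 2 siAXL libraries, grouped by their labels. The authors deposited a table of 63677 genes whose 4 library columns hold a signal, normalized counts, that is, reads of a gene over a size factor which DESeq2 gave each library. The submitters' processing notes name CASAVA 1.8, TopHat2 2.0.10, HTSeq 0.5.3, DESeq2 1.4.5 and GRCh37. The annotation and the strand setting are not given in the sources used here. The table's columns of the authors' own comparison (mean, log2 fold change, standard error, statistic, p-values) were not used, and per-sample columns left unused numbered 0.

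In each library 100% of values were whole multiples of 1 read (within 0.01), so reads were recovered by division. Chi-square per gene between libraries of a group was 20.1 and 18.2, so none was a duplicate. Genes passing edgeR's filterByExpr (16064, leaving out 47613) were tested with limma 3.58.1 (lmFit, eBayes with trend, two-sided) on log2(normalized count + 1) in R 4.3.3, with no covariate and Benjamini-Hochberg adjustment over all of them. Fold changes are siAXL over siCt on that scale, which understates changes of genes with few reads. edgeR 4.0.16 (quasi-likelihood) and DESeq2 1.42.0 on recovered reads, other pseudocounts (0.5 and 8), filters and scalings, a replicate block and leaving out each library were alternatives. The fit was tested on simulated data. Library totals were 39574387 to 44585773 reads, and with 2 libraries a group the spread between them is known poorly.

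Gene models, overlaps and sequences came from GENCODE 29 (GRCh38) by Ensembl identifier, with no coordinate carried between builds. Named genes were AXL, the 7 genes, the 2 with the smallest adjusted p in each direction and pathway list among called genes, the core paralogs, and the nearest gene of each member. Members and lists were chosen with earlier results of these data known. Some genes that this rule picks, and some sequences, are not reported here.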

Additional observations from a re-analysis of the deposited data

How the results depend on the processing

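MAP2K1 kept its direction under all 13 alternatives and lost its call under 1, the test of every gene with at least 1 read (log2 fold change 0.47, adjusted p = 0.0512). That setting tests 27108 genes with limma and called 0 of the 7 cascade genes, of which 3 had an unadjusted p under 0.05. It called 757 genes higher and 340 lower over all genes, and 7 higher in the pathway lists. DESeq2 started from the same 27108 genes and called 1 of the 7, as did edgeR on the 16064 genes of the reported fit. ARAF, which was never called, turned to -9.36e-06 under scaling by library size alone. When 1 library was left out, BRAF, also never called, ranged from -0.031 to 0.19 and fell below 0 without siCt 1 or siAXL 2, and RRAS2 ranged from -0.11 to 0.041. MAP2K1 alone was called among the 7 whichever library was left out (adjusted p up to 0.0278). Leaving out 1 library gave 872 to 2158 genes called higher and 413 to 1742 called lower, and in the pathway lists 7 to 17 higher and 3 to 11 lower. Of these, 888 and 413 genes were called higher and lower without siAXL 1, and 872 and 646 without siAXL 2.

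The labels number the libraries 1 and 2 in each group, and nothing says that a number marks a shared culture or day. Across 16064 genes the deviations of siCt 1 and siAXL 1 from their group means correlated at 0.271, which with 2 pairs was not taken as a pairing. Chi-square per gene between a siCt and a siAXL library was 32.8 and 39.6 for the same number and 46.3 and 58.8 for unlike numbers. Libraries of the same number were thus more alike, and whether the numbers mark a pairing is not known. With the replicate block, 4 of the 7 were called, namely MAP2K1 with NRAS (-0.16, adjusted p = 0.00026), HRAS (-0.17, adjusted p = 0.00223) and MAPK3 (0.14, adjusted p = 0.0137), and 3737 genes were called higher and 3573 lower, 43 and 22 of them in the pathway lists. With 1 library left out, the difference in log2 ratio ranged from -0.061 to 0.085 for NRAS to HRAS, from -0.076 to 0.18 for BRAF to ARAF and from 0.36 to 0.52 for MAP2K1 to MAP2K2, so the first of these turned without siCt 1 or siAXL 1 and the BRAF ratio without siCt 1 or siAXL 2. For the cascade genes, lists and ratios, 7 alternative values turned, 18 counts moved by more than 1.5 times, 3 values passed the threshold, 1 lost it and 148 did none of these. Each p rests on 2 libraries a group, except where 1 library was left out. Such a fit compares 1 library with 2, and 1 group then has no spread of its own.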
